A study of Drosophila melanogaster with 6 samples.

Results

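The extracellular protease cascade upstream of Toll was followed through 8 genes in adult male Drosophila melanogaster infected with M. luteus, a Gram-positive bacterium. The genes are the serine proteases and protease homologue modSP, grass, psh, spirit, spheroide and SPE, the serpin nec and the ligand spz, 8 of the 17558 gene identifiers in the count table. They were chosen by name and not by a rule on their values, though with earlier results of these data known. Of these, 7 were found by symbol in the Ensembl annotation of dm6, and spheroide was found under its current symbol sphe. The table holds 3 libraries of CR11538-overexpressing flies (Gal80ts; Tub> CR11538) and 3 of control flies (Gal80ts; Tub-Gal4/P{CaryP}attP40), and all 6 were collected at 12 h of infection. Both genotypes carry the Tub-Gal4 driver, whose tubulin promoter is active in nearly all tissues, and the heat-sensitive repressor Gal80ts, and both were infected, so no uninfected level is known here. According to the methods, the adult males were collected over several days, the transgene was inserted at attP40, and it was held silent by cool rearing and switched on by a transfer to a warm incubator. An exact age is not given in the sources used here.

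Toll in Drosophila does not bind microbes. Recognition proteins in the haemolymph, the insect's blood, sense bacterial or fungal cell walls and start a chain of serine proteases, which cut and activate one another and end with the cutting of the ligand Spätzle, and cut Spätzle then binds the receptor Toll. ModSP stands at the head of the recognition branch and Grass follows it. Persephone, the product of psh, forms a parallel branch that is switched on by proteases of microbes and other danger signals. Both branches meet at the Spätzle-processing enzyme SPE. The serpin Necrotic, made by nec, restrains the Persephone branch. The fat body, the fly's counterpart of the liver, and the blood cells are known sources of these secreted proteins.

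In the CR11538-overexpressing flies 4 of the 8 genes were downregulated, none was upregulated and 4 did not pass the test. The largest falls were those of SPE, to 0.515 of the control level, and nec, to 0.569, followed by modSP (0.684) and spirit (0.775). The share of all 13159 tested genes that fell was 14.2%, and 15.0% rose, against 4 of 8 cascade genes that fell and 0 that rose. Differences were tested with edgeR's quasi-likelihood test on TMM-scaled counts over all tested genes, and a gene is said to have fallen or risen where its Benjamini-Hochberg adjusted p is under 0.05, at any fold change. All 8 genes passed the filter on low counts. None fell and none rose by more than 2-fold with that adjusted p, where 1.23% of all tested genes fell and 3.43% rose so far. The median log2 fold change of the 8 genes was -0.31, beside -0.01 for all tested genes, and all 8 values lay below 0, between -0.96 and -0.10. In 6 of the 8 genes every CR11538-overexpressing library lay below every control library, which was so for 23.3% of all tested genes, and in none was every such library above the controls, as in 21.8% of all tested genes.

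**Figure D1:**
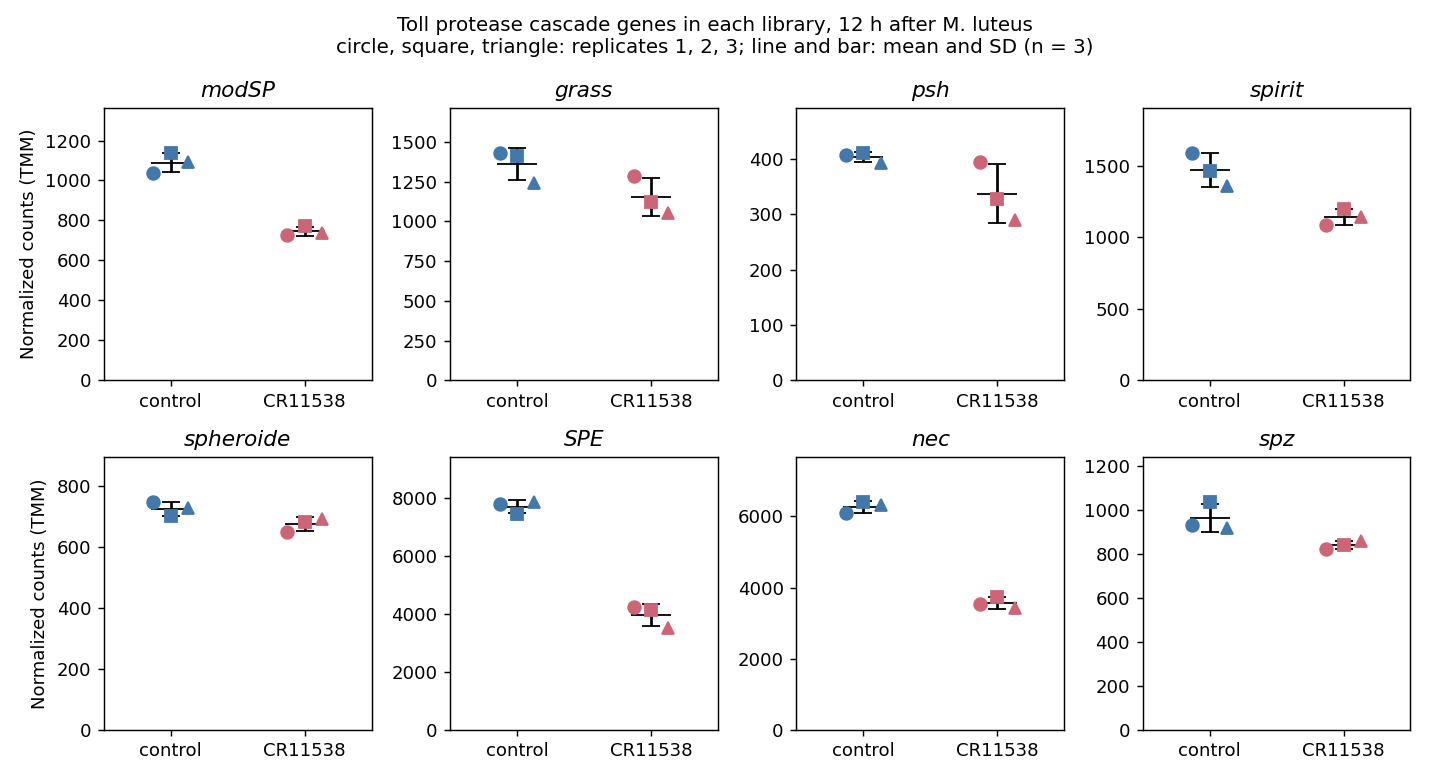
Normalized counts (TMM-scaled, each axis from 0) of the 8 cascade genes in the 3 control and 3 CR11538-overexpressing libraries, with the mean and SD of each genotype. The points of the genotypes lie far apart for SPE and nec and overlap for grass and psh.

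The libraries held 17040432 to 19652500 counts, and the cascade genes had from 299 to 7985 raw counts in a library. lncRNA-CR11538 itself had 5, 2 and 5 raw counts in the control libraries and 2291, 3358 and 3312 in the CR11538-overexpressing libraries, which gives log2 fold change 9.47 (standard error 0.25, edgeR adjusted p = 1.27e-07). CR11538-overexpressing replicates 1 and 3 stood apart on the second principal component (23.8 and -21.4, 11.5% of the variance), and replicate 1 bears on the results of grass and psh below. Male-specific genes were abundant, with 7 of 8 markers tested and a summed level of 2381 to 3008 CPM (counts scaled to library size), while 4 of 6 markers of the female germ line were not tested for lack of counts or of a matching identifier, and the list summed to at most 3.22. Nothing in the labels tells whether replicates came from separate crosses or how many flies each held. The methods state for the experiments in general that there were 3 independent biological replicates, without describing those of the sequencing. The p-values refer to the spread between these 6 libraries, and how much of it is technical is not known. In RNA of whole flies, fewer cells of a type and less RNA per cell cannot be told apart.

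At the head of the recognition branch, modSP encodes the modular serine protease that is activated once a recognition protein has bound its target. The gene (FBgn0051217) occupies 16652446 to 16655662 of chromosome 3R (dm6, minus strand), with 6 exons and 1 annotated transcript. It had 1039, 1137 and 1092 normalized counts in control replicates 1 to 3 and 728, 773 and 735 in the CR11538-overexpressing libraries. The genotypes did not overlap, and the gap between them was wider than the spread within either. The mean of modSP was 1089.5 ± 49.4 in control and 745 ± 24.2 in CR11538-overexpressing flies (SD, n = 3 each), and its log2 fold change was -0.55 (standard error 0.06, edgeR adjusted p = 0.000414), a fall of 31.6%. No annotated gene overlaps it.

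grass encodes the clip-domain protease that acts after ModSP, and it did not pass the test. The gene (FBgn0039494) lies on chromosome 3R from 27157948 to 27159781 on the plus strand, with 5 merged exons and 2 transcripts. The control libraries had 1431, 1410.3 and 1245 normalized counts and the CR11538-overexpressing libraries 1287, 1123 and 1052. CR11538-overexpressing replicate 1 was above control replicate 3, so the genotypes overlapped. The log2 fold change of grass was -0.24 (95% interval -0.44 to -0.04, edgeR adjusted p = 0.0680). Without CR11538-overexpressing replicate 1 it was -0.32, with adjusted p = 0.0127. The protease ModSP and its follower Grass therefore had fold changes of 0.684 and 0.847, and the difference between these genes was not tested.

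psh, the gene of the danger-sensing protease Persephone, was the least abundant of the 8. The gene (FBgn0030926) lies on the X chromosome from 18484487 to 18486921 on the minus strand, with 7 exons. It had 407, 411 and 394 normalized counts in the control libraries and 395, 328 and 289 in the CR11538-overexpressing libraries. The controls were close together, with a coefficient of variation of 2.26%, while the CR11538-overexpressing libraries spread over 15.8%, where counting error alone gives 5.43%. Its log2 fold change was -0.26 (95% interval -0.52 to -0.01, edgeR adjusted p = 0.113), and without CR11538-overexpressing replicate 1, the one library that reached the controls, it was -0.39 with adjusted p = 0.0134. Next to psh on the same strand, 715 bp away, lies the related protease gene Hayan, known from melanization. The mean of Hayan fell from 1262 ± 114 to 622 ± 90.1 (log2 fold change -1.02, edgeR adjusted p = 0.000228), and whether reads of the pair were shared in the counting was not tested.

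spirit and spheroide were placed upstream of Toll by a gene-silencing screen in adult flies. spirit encodes a clip-domain protease, and spheroide a serine protease homologue, a protein of the same fold thought to lack catalysis. spirit (FBgn0030051, X chromosome, 8571099 to 8573593, minus strand, 5 merged exons and 4 transcripts) had 1587, 1462 and 1355 normalized counts in control and 1085, 1193 and 1138 in CR11538-overexpressing libraries. The genotypes did not overlap, and spirit fell by 22.5%, from a mean of 1468 ± 116 to 1139 ± 54.4 (SD, n = 3 each), with log2 fold change -0.37 (standard error 0.07, edgeR adjusted p = 0.00588). spheroide (FBgn0030774, X chromosome, 16700446 to 16701972, minus strand, 2 exons) differed least. Its libraries held 746, 701 and 729.7 normalized counts in control and 649, 683 and 692 in CR11538-overexpressing flies, which do not overlap but nearly touch. The log2 fold change of spheroide was -0.10 with a 95% interval of -0.25 to 0.04 (edgeR adjusted p = 0.272), so a fall larger than 0.25 on that scale lies outside the interval. The whole gene lies within CG4678 on the opposite strand without sharing exon sequence, and CG4678 itself was at 0.10 on the log2 scale (edgeR adjusted p = 0.449).

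SPE, the protease in which the branches meet and which cuts Spätzle, was the most abundant gene of the cascade and fell furthest. The gene (FBgn0039102) lies on chromosome 3R from 23686255 to 23688147 on the plus strand, with 4 exons and 1 transcript. The control libraries had 7781, 7423 and 7831 normalized counts and the CR11538-overexpressing libraries 4221, 4133 and 3517. Every CR11538-overexpressing library was far below every control, and replicate 3 was the lowest. The mean of SPE fell by 48.5%, from 7679 ± 222 to 3957 ± 384 (SD, n = 3 each), with log2 fold change -0.96 (95% interval -1.14 to -0.77, edgeR adjusted p = 7.78e-05). Of all tested genes 1.69% had a lower log2 fold change. The interval includes a fall of 2-fold, at -1 on the log2 scale. SPE shares 107 bp of exon on the same strand with CG18754, which had only 35 to 75 raw counts in a library and did not pass (-0.30 on the log2 scale, edgeR adjusted p = 0.449).

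nec, whose serpin product Necrotic traps proteases and keeps Toll silent without infection, was second both in level and in fall. The gene (FBgn0002930) lies on chromosome 2R from 7156477 to 7158241 on the minus strand, in a group of serpin genes, with 3 exons and 1 transcript. It had 6087, 6394 and 6320.4 normalized counts in control and 3526, 3747 and 3423 in CR11538-overexpressing libraries. The genotypes were well apart and each was tight, with coefficients of variation of 2.55% and 4.64%. nec fell by 43.1%, from a mean of 6267 ± 159.9 to 3565 ± 165 (SD, n = 3 each), with log2 fold change -0.81 (95% interval -0.96 to -0.67, edgeR adjusted p = 5.82e-05), and 2.37% of all tested genes had a lower one. The inhibitor and the terminal protease thus fell side by side, and their intervals overlap. nec lies within pk on the opposite strand without sharing exon sequence, and pk did not pass (0.18 on the log2 scale, edgeR adjusted p = 0.234).

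spz encodes Spätzle, a cystine-knot protein that is secreted as an inactive precursor and becomes the ligand of Toll when SPE has cut it. The gene (FBgn0003495) lies on chromosome 3R from 27064990 to 27070070 on the minus strand, with 7 merged exons and 8 transcripts, so its count pools several isoforms. It had 934, 1035 and 919 normalized counts in control and 822, 842 and 860.3 in CR11538-overexpressing libraries. The genotypes did not overlap, but the difference did not pass the test (log2 fold change -0.19, 95% interval -0.35 to -0.04, edgeR adjusted p = 0.0594). Its exons share 5 bp with CG43935 on the opposite strand, which rose (0.39 on the log2 scale, edgeR adjusted p = 0.00566), and whether its reads entered the count of spz was not tested.

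**Figure D2:**
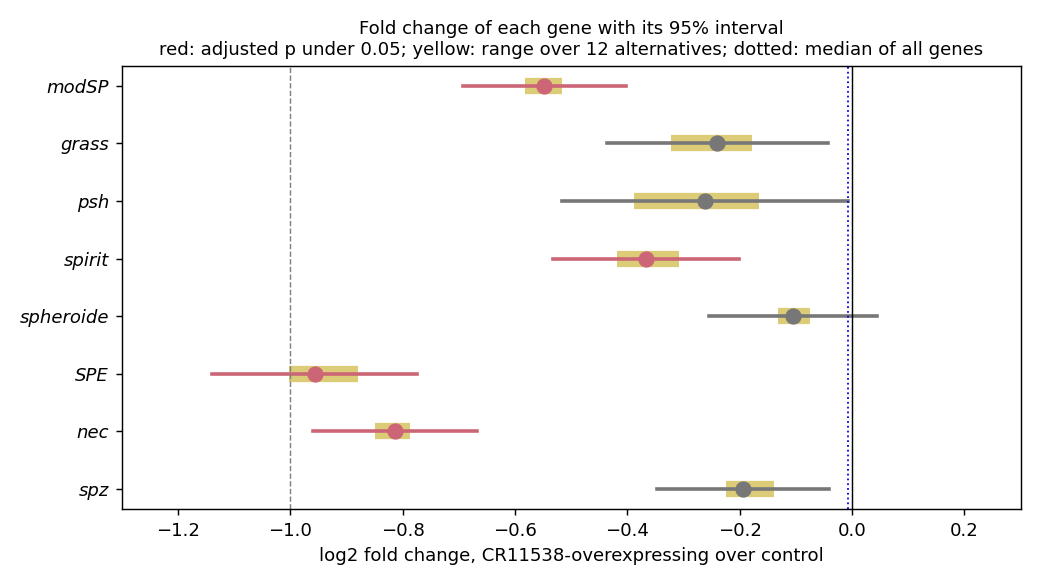
Log2 fold change (points) of each cascade gene, CR11538-overexpressing over control, with its 95% interval (lines) from edgeR and the range over 12 alternative analyses (yellow bars). The 4 genes in red passed the test. SPE at -0.96 and nec at -0.81 have intervals that do not reach those of grass, psh, spirit, spheroide or spz, and the dashed line marks a fall of 2-fold.

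Transcript levels were compared between genes per length, as TMM-scaled CPM for each kilobase of exon. In the control flies SPE stood at 323 ± 9.37 and nec at 205 ± 5.23 (SD, n = 3), above grass (52.2 ± 3.91) and spirit (47.3 ± 3.74), whose libraries overlapped in level. spheroide (30.7 ± 0.977), modSP (25.4 ± 1.15), spz (21.7 ± 1.43) and psh (13.1 ± 0.296) followed in that order without overlap. The terminal protease and the inhibitor were thus measured at levels several times those of the proteases above them, and the ligand lay near the bottom of the order. The length used for spz merges the exons of 8 transcripts (2364 bp), and its place with the length of a single isoform was not tested. The level of SPE exceeded that of 97.6% of all tested genes in the controls and that of psh 56.8%.
In the CR11538-overexpressing flies SPE (167 ± 16.2) and nec (116 ± 5.40) remained the highest and psh (10.9 ± 1.73) the lowest. The order changed in one place, where spz (19.0 ± 0.431) stood above modSP (17.4 ± 0.564), the lowest library of spz at 18.6 and the highest of modSP at 18.0. No neighbours in this order overlapped.

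**Figure D3:**
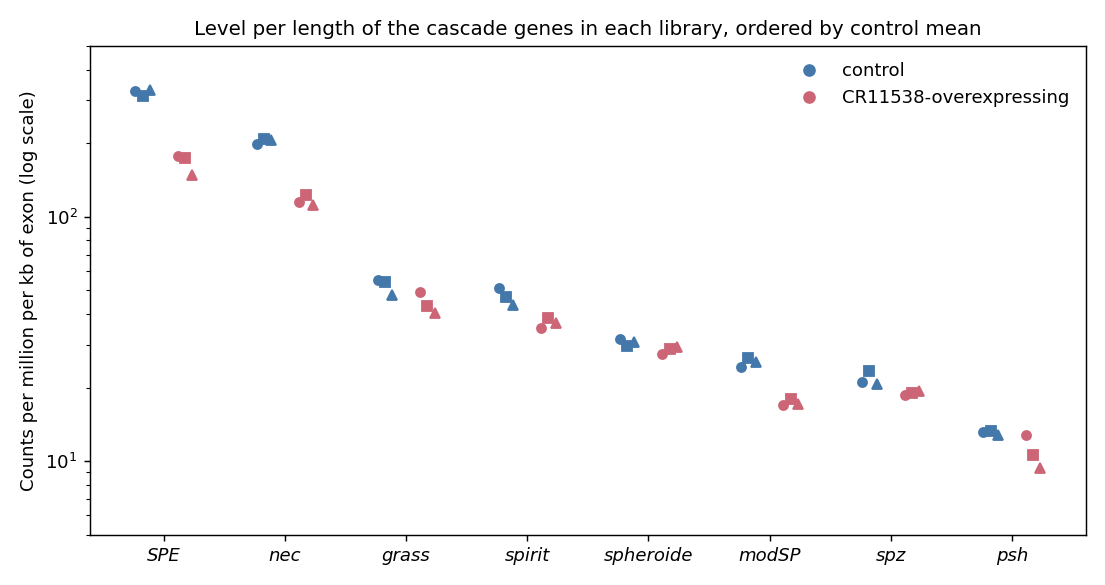
Level per length (CPM for each kilobase of exon, log axis) of the cascade genes in each library, ordered by the control mean. SPE and nec lie above 100 in both genotypes and the other genes below 60.

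Ratios between cascade genes within a library do not depend on how the libraries were scaled. They are given as a description, with no test, since the genes were chosen with results of these data known. The normalized count of spz was 0.126 ± 0.0121 of that of SPE in control and 0.214 ± 0.0266 in CR11538-overexpressing flies (SD, n = 3 each), with the libraries of each genotype apart, the CR11538-overexpressing ones higher. The ratio of nec to SPE was 0.817 ± 0.0404 against 0.905 ± 0.0690, and the libraries overlapped. Between the danger branch and the recognition branch, libraries overlapped in the ratio of psh to grass, with psh at 0.298 ± 0.0166 of grass in control and 0.291 ± 0.0158 in CR11538-overexpressing flies. Against modSP, psh was at 0.371 ± 0.0180 and 0.453 ± 0.0789, and the CR11538-overexpressing libraries ranged from 0.393 to 0.543 above controls of 0.361 to 0.392. The genotypes thus nearly touched, and the highest value was that of CR11538-overexpressing replicate 1. Without that library the difference in log2 ratio was 0.14, against 0.27 with all 6.
Summed over the 8 genes, the control libraries had 20013, 19974 and 19886 normalized counts and the CR11538-overexpressing libraries 12712, 12822 and 11707. SPE and nec made up 69.9 ± 1.11% of this sum in control and 60.6 ± 1.14% in CR11538-overexpressing flies. The other 6 genes together had 5735 to 6157 against 4767 to 4966, so their sum too was lower in every CR11538-overexpressing library, by less. Of these 6 only modSP and spirit passed the test, and grass and psh overlapped between the genotypes.

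**Figure D4:**
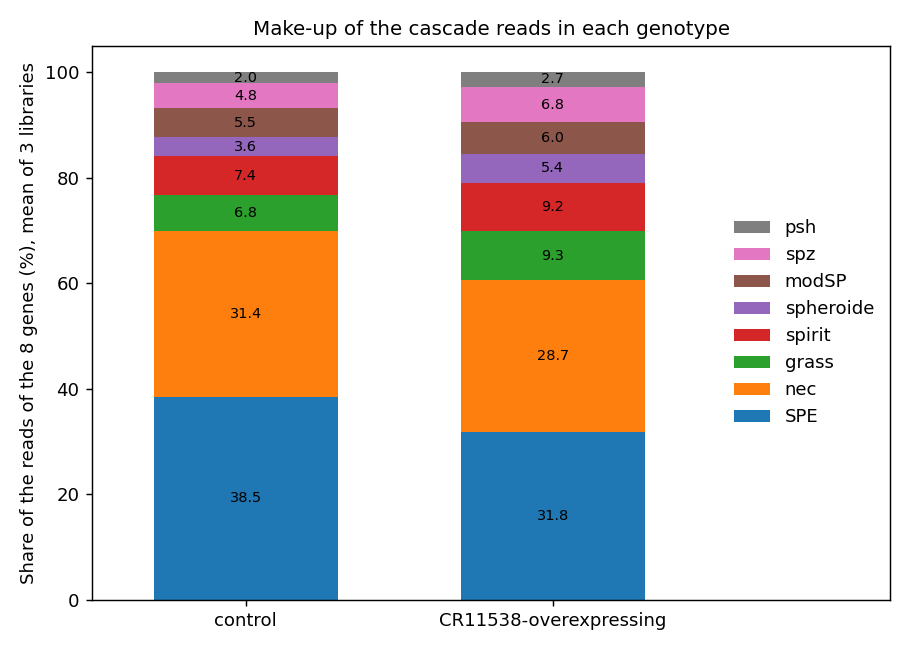
Share of each gene in the summed normalized counts of the 8 cascade genes (%), mean of the 3 libraries of each genotype. The share of SPE was 38.5% in the control and 31.8% in the CR11538-overexpressing flies, and that of nec 31.4% and 28.7%, so the shares of the other genes were larger.

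Around the cascade, 52 further genes in 6 lists were read from the same fit. Of the 48 that were tested, 25 fell, 5 rose and 18 did not pass, with a median log2 fold change of -0.33. Over all tested genes 14.2% fell and 15.0% rose, so the 5 of 48 that rose were no more than that share. The recognition proteins that feed the cascade were all lower, 4 of 4 (median -0.45). These are PGRP-SA (-0.40) and GNBP1 (-0.45), which sense Gram-positive bacteria, PGRP-SD (-0.46), and GNBP3 (-0.52), which senses fungi. From the receptor to NF-κB 5 of 8 were lower and none was higher (median -0.34), namely Tl (-0.39), the kinase gene pll (-0.29), the inhibitor gene cact (-0.57) and the transcription factor genes dl (-0.66) and Dif (-0.40). SPE and nec, at -0.96 and -0.81, thus had lower estimates than every tested gene from recognition to NF-κB. The pair was not below every protease and serpin of the lists that follow. The estimates of spirit, grass, psh, spheroide and spz were above those of every recognition gene. Differences between genes were not tested, and some estimates were close, as for spirit (-0.37, standard error 0.07) and PGRP-SA (-0.40, standard error 0.08).
Among other serine proteases, most of them with a clip domain, 9 of the 19 with a test fell and 0 rose. Their median was -0.30, the value of CG18754, which did not pass. The lowest adjusted p among them belonged to CG11841 (-1.53), CG11842 (-1.33), CG9372 (-0.76) and Hayan (-1.02). Of 8 other serpins 5 were lower, Spn77Ba (-0.40), Spn88Eb (-1.25), Spn43Ab (-0.89), Spn43Ad (-0.59) and Spn42Dd (-0.60), and Spn43Aa (0.90) was higher (median -0.49). Spn43Aa, Spn43Ab and Spn43Ad are close relatives of nec in the same group, and they did not move in one direction.
Of the cascade that leads to the cutting of Spätzle in the embryo 5 of 6 genes were tested. Its proteases ndl, gd and snk had only 3 to 20 raw counts in a library, and the last was not tested. The protease gene ea (-0.59) and the serpin gene Spn27A (-0.65), which also restrains melanization, were lower and pip (0.80) was higher, with a median of -0.30. This median is the value of gd, which did not pass. Of the paralogues of spz, whose products are Spätzle-like ligands, 4 of 5 were tested. In normalized counts spz3 rose from 118 ± 11.2 to 339 ± 32.8 (1.52 on the log2 scale) and spz6 from 15.5 ± 2.39 to 29.5 ± 4.60 (0.92), while spz5 did not pass (0.26, edgeR adjusted p = 0.155). NT1 also passed the test, but at 3.33 ± 1.42 in control and 29.4 ± 4.65 in CR11538-overexpressing flies it met the filter on low counts only through the latter, so it could have been tested only if it differed. It is among the 5 higher genes and in the median of 1.22 of this list, whose middle value without NT1 is 0.92. spz itself, at 962 ± 63.6 in the controls, was counted more often than any of them.

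**Figure D5:**
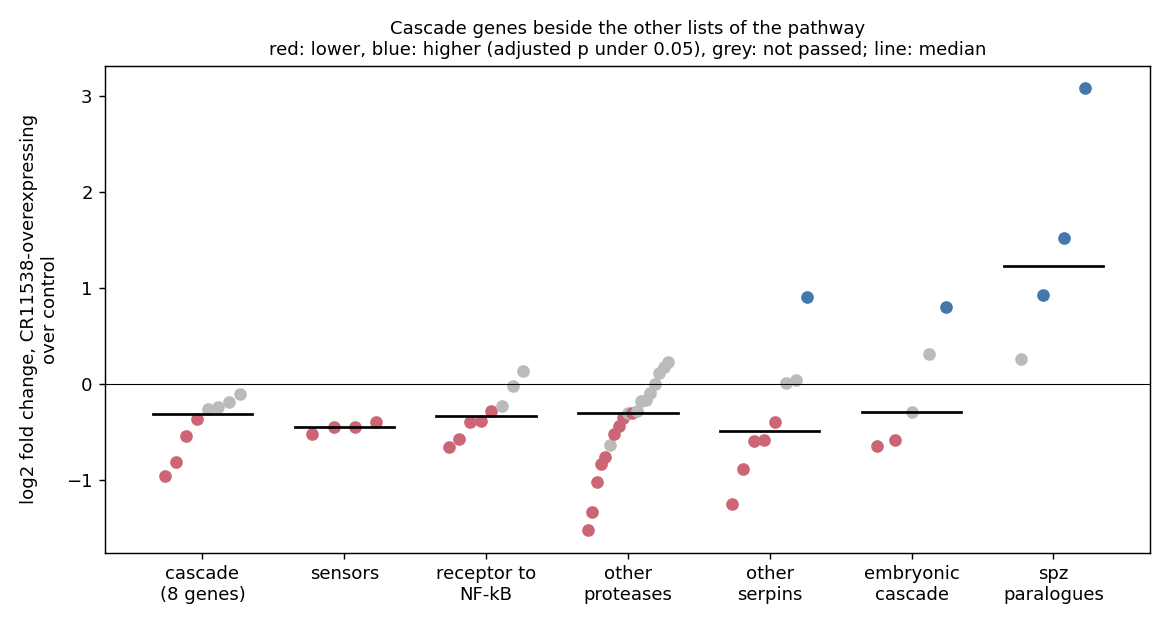
Log2 fold change of every tested gene of the cascade and of 6 other lists, CR11538-overexpressing over control, with the median of each list (line). The medians lie between -0.49 and -0.30 except for the spz paralogues at 1.22, which includes NT1. The medians of the embryonic cascade and the other proteases are those of gd and CG18754, low-count genes that did not pass.

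Among the sources of these proteins, fat body markers moved in both directions, while the hemocyte markers that passed were all higher. Of 8 fat body markers 7 were tested, of which 2 were lower (Apoltp and Ilp6), 2 were higher (apolpp and Fbp1) and 3 did not pass, and the list summed to 3408 to 3960 CPM in control and 3163 to 5260 in CR11538-overexpressing libraries. Of 8 hemocyte markers 7 were tested, 5 were higher (Hml, NimC1, crq, Pxn and NimC4) and none was lower, with sums of 545 to 564 and 663 to 749. NimC4, whose mean normalized count was 2.31 in control and 47.1 in CR11538-overexpressing libraries, met the filter on low counts only through the latter. He, one of them, had 1 to 6 raw counts in a library. Of 8 gut markers 3 were higher and 1 was lower. Over all tested genes 14.2% fell and 15.0% rose, so the 1 lower gut marker (12.5% of its list) is near that share. By comparison, 37.5% of the gut list and 71.4% of the tested hemocyte markers were higher. The fat body list had 28.6% of its tested genes lower and 28.6% higher, from 2 genes each. The part of all these markers in the falls of the cascade genes was not tested.

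The genes whose pattern over the 6 libraries was most like that of SPE, nec and spz were sought among 11237 other genes whose normalized counts averaged 50 or more, by the root mean square difference of centred log2 values. Closest to SPE were v (0.0428), the tryptophan dioxygenase gene of eye pigment synthesis, Lst (0.0521), the gene of the hormone limostatin, and the serpin gene Spn43Ab (0.0531). Closest to nec were CG1441 (0.0395), nst (0.0455) and FBgn0010381 (0.0574). The last has no name in the annotation used and was abundant, with a mean of 103708 normalized counts and log2 fold change -0.80. Closest to spz were Pkn (0.0161), a protein kinase gene, CG7888 (0.0165) and osy (0.0174). Each had a log2 fold change of -0.20 to -0.19 and did not pass the test. The search picks genes of similar fold change and spread, so this likeness is no separate result.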

How the data were processed

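Poly(A) RNA of adult males was sequenced in paired ends. The authors used HISAT2 2.0.5 for alignment (dm6 in the submitters' processing notes) and featureCounts 1.5.0-p3 for counting, and deposited the raw counts of each library, neither normalized nor pooled. Strand setting and annotation release were not given in the sources used here. Gene names, positions and exon lengths came from Ensembl release 115. No sequence was used here.

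filterByExpr in edgeR 4.0.16 (R 4.3.3, limma 3.58.1) kept 13159 genes for the quasi-likelihood test, with TMM scaling and genotype as its only term. Standard errors and 95% intervals refer to the log2 coefficient without shrinkage, and intervals are not adjusted for the number of genes. The study used DESeq2, which was run here as an alternative (1.42.0). All 6 libraries were used, since replicates differed by more than counting noise (mean chi-square 6.89 to 35.6 for a gene). A count of 0 allows a share of up to 1.53e-05% in the deepest and 1.76e-05% in the shallowest library, taking 3 counts, for counting error only. Alternatives were DESeq2, other scalings and filters, leaving out each library, blocking on the replicate number and a fold threshold of 2. The leave-outs of ratios and shares, shares per length and other scalings of levels were chosen after seeing the data.

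The 8 genes and all lists were chosen with earlier results of these data known. The naming rule took the 8 genes, every gene with adjusted p under 0.05 in the pathway lists of 8 or fewer (not the marker lists), up to 4 of the lowest adjusted p among the other proteases, and the 3 genes most like SPE, nec and spz. The lists were recognition proteins, receptor to NF-κB, embryonic cascade, other proteases, other serpins, spz paralogues and markers of fat body, hemocytes, gut, males and the female germ line. Scripts were tested on simulated data, and tables and figures were made with Python 3.11.15, pandas 2.3.3, numpy 2.4.6 and matplotlib 3.10.9.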

Additional observations from a re-analysis of the deposited data

How the results depend on the processing

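SPE, nec, modSP and spirit fell under all 12 alternatives to their fold changes, with log2 fold changes of -1.003 to -0.88, -0.85 to -0.79, -0.58 to -0.52 and -0.42 to -0.31. spheroide (-0.13 to -0.08) and spz (-0.22 to -0.14) passed under none, with adjusted p down to 0.262 and 0.0640. grass passed under 3 (library size alone, adjusted p = 0.0270, the replicate block, 0.0210, and without CR11538-overexpressing replicate 1) and psh under 1. No cascade gene changed sign. The number that fell was 5 with the replicate block, 5 with library size alone and 4 to 6 with a library left out. Correlations between same-numbered deviations were 0.127, 0.0349 and 0.0709. Those between different numbers were not computed, so whether the replicate numbers pair the libraries is not settled. With a fold change over 2 also required, 0 of the 8 genes, 162 of all tested genes and 4 of the other pathway genes were lower, and 451 and 2 were higher. With a library left out, 1146 to 1889 of all genes were lower, against 1870 with all 6, and 1193 to 2024 higher, against 1974, both lowest without control replicate 2; without control replicate 1, 1255 were higher. Other pathway genes higher were 3 to 5, lowest without control replicate 3. None of 32 rescaled levels per length moved by 1 SD. At the lowest count of a cascade gene, 299 for psh, counting error was still below the spread of psh between CR11538-overexpressing libraries.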
